A study of Mus musculus with 12 samples.

Results

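Genes of the chemokine, interleukin and tumor necrosis factor (TNF) families were examined in C2C12 cells, an established mouse line of muscle precursors (myoblasts) that is kept dividing in growth medium (GM) and forms myotubes when switched to low serum. The members were chosen by a rule on gene symbol and gene type, with earlier results of these data known. The rule takes protein-coding genes named Ccl, Cxcl, Cx3cl, Il, Ccr, Cxcr, Ackr, Tnfsf or Tnfrsf with a number. It also takes Lif, Lifr, Il6st, Osmr, Csf1 and Tslp by name. This rule found 66 genes among the 9266 protein-coding genes held by the 3 deposited RNA-seq tables. In the GENCODE M21 annotation of GRCm38 the same rule finds 175 protein-coding genes.

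RNA-seq covered 4 groups with 2 libraries each: GFP-overexpressing cells in GM (day 0), GFP-overexpressing cells after 4 days in differentiation medium (D4), METTL3-overexpressing cells in GM and METTL14-overexpressing cells in GM. METTL3 and METTL14 are the core of the enzyme that writes N6-methyladenosine (m6A) on RNA. All cells, the GFP control included, were lentiviral stable lines selected with puromycin, with mouse cDNAs or GFP behind a CMV promoter, and whether a line was a pool or a clone is not given in the sources used here. The time point field of the METTL14-overexpressing libraries reads D4, whereas their titles read D0. They were grouped by title. The 4 MeRIP-seq libraries, an input and an m6A-enriched library for each stage, were not analysed here.

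Each table lists the genes that passed a limit of 0.05 on FDR in a comparison made by the authors: D4 with GM in GFP-overexpressing cells, METTL3- with GFP-overexpressing cells in GM, and METTL14- with GFP-overexpressing cells in GM. What could be read for each gene here was which tables list it and the authors' mean normalized count, which is a mean over libraries. The size and direction of each change and its p-value are the results of the authors' own comparisons and were not used, so no member is called higher or lower in any group. Values of single libraries are not among the columns, so no mean has an error, these tables do not give the depth, and no difference could be tested against the spread between libraries. A gene that a table leaves out may be silent, unchanged or too variable, and its absence carries no more than that. A mean of this kind blends the groups. It is not the level in any one group, and in bulk RNA fewer cells of a type and less RNA per cell cannot be told apart.

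Chemokines are small secreted proteins that draw leukocytes along a gradient through G protein-coupled receptors, and atypical receptors take them up without the usual signal. Interleukins and their relatives act through receptor chains that are often shared, with Il6st (gp130) and Il2rg as the best known shared chains, and most signal through JAK kinases and STAT factors. TNF family ligands act on receptors that recruit TRAF adaptors and drive NF-κB, or that lead to cell death through FADD. In muscle these families are best known from regeneration, in which myogenic cells exchange signals with macrophages, and several of them, among them LIF and the TNF ligand TWEAK, act on myoblasts directly.

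Markers of the labelled cell type were read first. All 9 genes of a list of myoblast and myotube markers were held by a table, with mean normalized counts from 21.7 for the satellite cell factor Pax7 to 53546 for skeletal α-actin (Acta1). The myogenic factor Myod1 was at 1845 and the intermediate filament gene Des at 24157. Of 10 macrophage and other leukocyte markers, 1 was listed, Csf1r at 27.1, and none of the 3 endothelial markers was. Ptprc, Adgre1 and Cd68 had no value in any table, which does not give their level. Of 5 fibroblast markers 4 were listed, with Col1a1 at 34402. To set beside these counts, any table lists 9266 protein-coding genes, and 21951 are annotated. A listing marks a change and not a level, so the counts of listed markers do not settle the cell type. The overexpressed genes were each listed in their own comparison, Mettl3 with a mean of 5827 and Mettl14 with a mean of 6250.5, and the D4 table also lists Mettl14.

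The members had a median mean normalized count of 122, against 545 over all protein-coding genes listed. Divided by the length of the merged exons, which allows levels of different genes to be compared, the median was 45.7 per kb against 115 per kb. Of the 66 members, 22 lay above the median of all genes per kb, 3 lay in the highest 10% and 16 in the lowest 10%. The range was wide. The mean normalized count was under 10 for 9 members, at least 100 for 36 and at least 1000 for 10. Csf1 alone made up 23.1% of the summed mean normalized counts of the members, and together with Il6st and Tnfrsf12a it made up 43.5%.

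**Figure D1:**
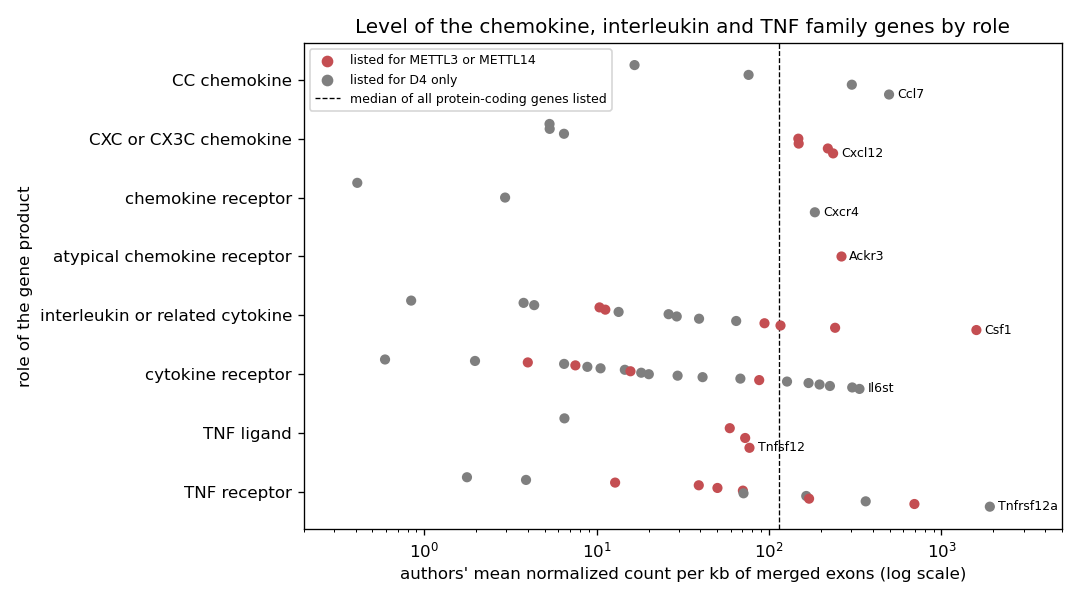
Authors' mean normalized count per kb of merged exons (horizontal, log scale) for the 66 members, in rows by role. Each point is a gene, red where the METTL3 or METTL14 table lists it and gray where only the D4 table does, the dashed line is the median of all protein-coding genes listed (115 per kb), and Tnfrsf12a and Csf1 stand at the right edge with 1908 and 1594 per kb.

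For D4, 60 of the 66 members were listed (90.9%), near the 95.2% of all protein-coding genes listed in any table. The 6 members not listed for D4 were Tnfsf9, Tnfsf15, Tnfrsf9, Tnfrsf1b, Il1rn and Il27ra. For METTL3, 23 members were listed (34.8%), against 18.5% of all genes. For METTL14, 12 members were listed (18.2%), against 11.6% of all genes. The shares are of genes that at least 1 table lists, most of them through D4, and they carry no test. All 3 comparisons use the GFP-overexpressing libraries in GM, so the lists are not independent of each other.

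**Figure D2:**
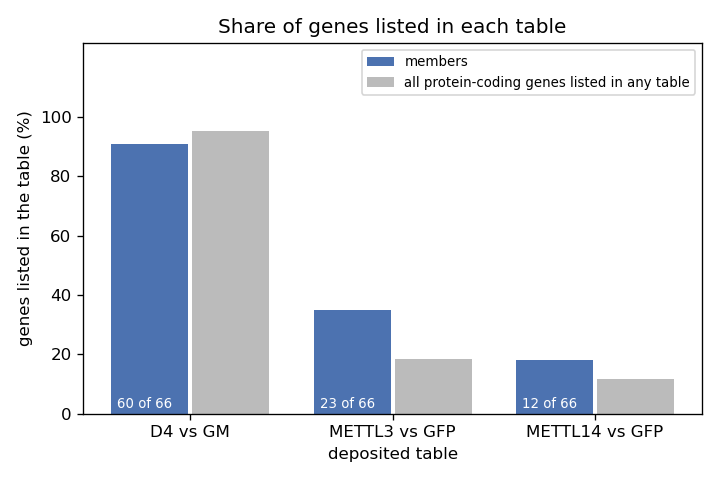
Share of genes (vertical, in percent) listed in each deposited table, for the 66 members (blue, with counts) and for the 9266 protein-coding genes listed in any table (gray). The members are at 34.8% against 18.5% for METTL3, at 18.2% against 11.6% for METTL14 and at 90.9% against 95.2% for D4, and without library values the bars have no error.

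The CC chemokines were 4 of 23 annotated genes, and all 4 were listed for D4 and none for METTL3 or METTL14. To set beside such counts, here and below, any table lists 9266 protein-coding genes, and 21951 are annotated. Of those listed in any table, 95.2% were listed for D4, 18.5% for METTL3 and 11.6% for METTL14. No role group was tested. Ccl7 and Ccl2, which attract monocytes through the receptor Ccr2, had the highest levels, 497 and 302 per kb (mean normalized counts 398 and 344). Ccl8 was at 76.1 per kb with a mean normalized count of 38.9. These 3 genes lie on chromosome 11 of GRCm38 between 82035571 and 82116799, a stretch of 81.2 kb in which Ccl11 and Ccl12, which no table lists, lie between Ccl7 and Ccl8. Ccl25, a chemokine best known from thymus and gut, was at 16.6 per kb. It overlaps Elavl1 on the other strand, and since the strand setting of the counting is not given, reads of such pairs cannot be told apart. The same limit holds for other members with such an overlap, among them Ccl2, Il18, Il34, Il27ra, Tnfsf9 and Tnfrsf9.

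Among the CXC and CX3C chemokines 7 of 13 annotated genes were listed, all of them for D4, 4 for METTL3 and 2 for METTL14. Cxcl12, the stromal chemokine that guides muscle progenitors as well as leukocytes, led with a mean normalized count of 1923 (235 per kb; ENSMUSG00000061353, chromosome 6, 117168535 to 117181367). All 3 tables listed it. Cxcl5, a neutrophil-attracting chemokine, was at 408 (219 per kb) and was likewise listed in all 3 tables. Its neighbor Cxcl1, which acts on the same receptor, was at 278 (149 per kb) and was listed for D4 and METTL3. Cxcl5 and Cxcl1 lie within 134 kb of chromosome 5 with Cxcl3 and Cxcl15 between them, neither of which any table lists. Cx3cl1, a chemokine tethered to the membrane, was at 581 (148 per kb) and was listed for D4 and METTL3. The other CXC genes were low. Cxcl16, Cxcl14 and Cxcl13 had mean normalized counts of 19.5, 9.76 and 6.13 and were listed for D4 only.

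Of 17 annotated chemokine receptors 3 were listed, each for D4 only, where 40.1% of all annotated protein-coding genes were listed for D4. Cxcr4, the signaling receptor of Cxcl12, was at 333 (184 per kb), whereas Ccr7 and Ccr9, receptors best known from lymphocytes, had mean normalized counts of 5.82 and 4.20. Ccr9 overlaps 6 other annotated genes, so its few reads are of uncertain origin. Ackr3, the atypical receptor that takes up Cxcl12, was the only 1 of 4 atypical receptors listed. It had a mean normalized count of 871 (260.3 per kb; ENSMUSG00000044337, chromosome 1, 90203980 to 90216751), above Cxcr4 per kb, and all 3 tables listed it. Cxcl12 and Ackr3 were thus listed in each comparison, and Cxcr4 for D4 alone. Ccr2, the receptor named above for Ccl2 and Ccl7, and Cxcr2, the receptor of Cxcl1 and Cxcl5, were listed in no table.

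The ligands of the interleukin group were 14 of 44 annotated genes, of which 13 were listed for D4, 6 for METTL3 and 3 for METTL14. Csf1, the growth factor of macrophages, had the highest mean normalized count of all members, 8417 (1594 per kb, above 96.9% of all listed genes per kb; ENSMUSG00000014599, chromosome 3, 107741048 to 107760469), and all 3 tables listed it. Il34, the other ligand of the Csf1 receptor, was at 228 (117 per kb) and was listed for D4 and METTL3. The receptor gene of both, Csf1r, was at 27.1 (4.69 per kb) and was listed for D4. Il33, an alarmin kept in the nucleus until cells are damaged, was at 697 (242 per kb) and was listed for D4 and METTL3. Il18, made as a precursor that caspase-1 cleaves, was at 97.0 (94.1 per kb) and was listed in all 3 tables. Il15, a cytokine also made by muscle, was at 23.5 (10.4 per kb) and was listed for D4 and METTL3. Il1rn, the natural antagonist of the interleukin-1 receptor, was at 62.2 (11.2 per kb) and was listed for METTL3 and METTL14 but not for D4. Tslp (85.8) and Lif (171), whose receptors hold the Il7r and Lifr chains, were listed for D4 only, as were Il12a, Il4, Il11, Il6, Il1b and Il16, whose mean normalized counts ran from 6.61 for Il16 to 49.6 for Il12a.

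Promoters were searched on both strands, in the 250 bases before each RefSeq gene start (GRCm38.p6), for a κB-type sequence, the form bound by NF-κB: GGGA, any base, then TTTCC. RefSeq starts were matched for 49 of the 66 members, with 65 starts in all, and 4 starts held the letters (6.15%), against 0.356% of all 32851 starts. They belong to Cxcl1, Csf1, Il6 and Il16. Of the 5 sequences searched, this one was picked for display after its counts were seen, so its share is no test. The other 4 were TATAAA in 20% of member starts against 12.4% of all starts, CANNTG in 72.3% against 66.2%, TGANTCA in 12.3% against 6.75%, and TTC and GAA spaced by NNN in 7.69% against 7.02%. The matches are shown as examples, 1 in a chemokine and 3 in ligands of the interleukin group, with the matched bases in capitals, 5′ to 3′ on the strand of the gene. In Csf1 the letters stand as their reverse complement.
Cxcl1 (chr5:90891164-90891193, plus strand): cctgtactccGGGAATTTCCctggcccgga
Csf1 (chr3:107760604-107760633, minus strand): gggccttgagGGAAAGTCCCtaggggccag
Il6 (chr5:30013060-30013089, plus strand): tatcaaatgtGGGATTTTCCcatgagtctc
Il16 (chr7:83655525-83655554, minus strand): catgactgctGGGAATTTCCcgctaaaggt
The match began 71 bases before the start of Cxcl1, 154 before Csf1, 44 before Il6 and 49 before a start inside the annotated Il16 gene. Of these genes, Csf1 was at 1594 per kb and Cxcl1 at 149 per kb, whereas Il6 and Il16 were at 4.34 and 0.840 per kb, so the letters occurred in both high and low members. A match is a description of the sequence and no measurement of binding.

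Cytokine receptors made up the most members, 21 of 43 annotated genes, with 20 listed for D4, 4 for METTL3 and 3 for METTL14. Il6st, the signaling chain shared by the receptors of the interleukin-6 family, was at 3713 (334 per kb) and was listed for D4. Its partner chains Lifr and Osmr, for LIF and oncostatin M, were at 1369.75 (127 per kb) and 1062 (87.7 per kb). Lifr was listed for D4, and Osmr (ENSMUSG00000022146, chromosome 15, 6813577 to 6874969) in all 3 tables. Il6ra, the chain that binds interleukin-6 itself, was lower, at 356 (41.2 per kb), and Il11ra1, the chain for interleukin-11, was at 33.7 (7.53 per kb), listed for D4 and METTL3. The Il11ra1 value is uncertain, because the mouse genome holds a near-identical Il11ra2 and the gene overlaps 6 others. Il27ra, which pairs with Il6st, was at 13.9 (3.99 per kb) and was listed for METTL3 and METTL14 but not for D4. The interleukin-6 family thus had its shared chain among the higher members per kb, and the other chains given here lay below it.

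Of the remaining receptors, Il17rc, Il4ra, Il13ra1 and Il1r1 were at 304, 225, 196 and 169 per kb, and were listed for D4 only. Il4ra and Il13ra1 form the receptor for interleukin-13 and, outside blood cells, for interleukin-4. Il2rg, the chain shared by receptors for interleukin-2 and interleukin-15, was at 37.5 (15.7 per kb) and was listed in all 3 tables. Its partner Il2rb was at 62.5 and was listed for D4 only. The annotation places Gm20489 over Il2rg on the same strand, which may share its reads. Il1rl1 (ST2), which binds interleukin-33, was at 60.9 (8.83 per kb), below its ligand gene Il33 per kb, and its accessory chain Il1rap was at 206 (18.1 per kb). Il18rap, the accessory chain for interleukin-18, was at 71.1 (10.5 per kb). Both chains and Il1rl1 were listed for D4 only. The receptor genes Il3ra, Il17rd, Il12rb1, Il13ra2, Il21r and Il1rl2 were listed for D4 only as well, with levels from 0.593 per kb for Il1rl2 to 68.2 per kb for Il3ra.

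Some members lie next to each other in the genome. Il1r1, Il1rl2, Il1rl1 and Il18rap lie together on chromosome 1 between 40225080 and 40551705, with levels of 169, 0.593, 8.83 and 10.5 per kb. Il1r1 and Il1rl2 overlap Gm38070 and Gm17970 on the same strand, and Il1rl2 had a mean normalized count of only 4.04. Il4ra and Il21r lie within 81.5 kb on chromosome 7, at 225 and 1.97 per kb. On chromosome 7 between 143607659 and 143685872, Tnfrsf23, Tnfrsf22 and Tnfrsf26 were at 363, 164 and 3.89 per kb, and all 3 were listed for D4. An antisense gene, E230032D23Rik, overlaps these 3. The other runs are those of Ccl2, Ccl7 and Ccl8, of Cxcl5 and Cxcl1, and of Tnfsf12 and Tnfsf13. In all, 16 members lay in 6 such runs, with gaps of at most 200 kb, and 50 lay outside them. The runs were built from the members alone. A member outside them may still lie next to family genes that no table lists.

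The TNF ligands were 4 of 11 annotated genes. Tnfsf15 (TL1A) was at 198 (59.2 per kb) and was listed for METTL3 and METTL14 but not for D4. Tnfsf9, the ligand of 4-1BB, was at 93.8 (72.7 per kb) and was listed for METTL3 only. Tnfsf12 (TWEAK) was at 117 (77.0 per kb) and was listed for D4 and METTL3, and its neighbor Tnfsf13 was at 10.6 (6.50 per kb) and was listed for D4. A read-through gene, Tnfsfm13, covers both Tnfsf12 and Tnfsf13, so reads may be split between them.

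The TNF receptors were 12 of 20 annotated genes, with 10 listed for D4, 5 for METTL3 and 2 for METTL14. Tnfrsf12a (Fn14), the receptor of TWEAK, had the highest level per kb of all members, 1908 (mean normalized count 3685; ENSMUSG00000023905, chromosome 17, 23675445 to 23677468), above 97.6% of all listed genes per kb. It was listed for D4 and for neither overexpression, whereas its ligand gene Tnfsf12 was listed for D4 and METTL3. Tnfrsf1a, the widely expressed TNF receptor with a death domain, was at 1805 (697 per kb) and was listed for D4 and METTL3. Tnfrsf1b, the TNF receptor without one, was at 651 (171 per kb) and was listed for METTL3 only. Tnfrsf25 (DR3), the receptor of Tnfsf15, was at 114 (50.2 per kb) and was listed in all 3 tables. Tnfrsf9 (4-1BB), the receptor of Tnfsf9, was at 34.8 (12.8 per kb) and was listed for METTL3 only, as its ligand was. Tnfrsf21 (DR6) was at 161 (39.1 per kb) and was listed for D4 and METTL3. Tnfrsf11b (osteoprotegerin), a soluble decoy receptor for RANK ligand, was at 199 (70.5 per kb) and was listed for D4 and METTL14. Tnfrsf10b, the receptor of TRAIL, was at 388 and was listed for D4, as were the decoy receptors Tnfrsf22 and Tnfrsf23. Tnfrsf19 had the lowest level of the TNF receptors, 1.77 per kb (mean normalized count 8.38), and was listed for D4.

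**Figure D3:**
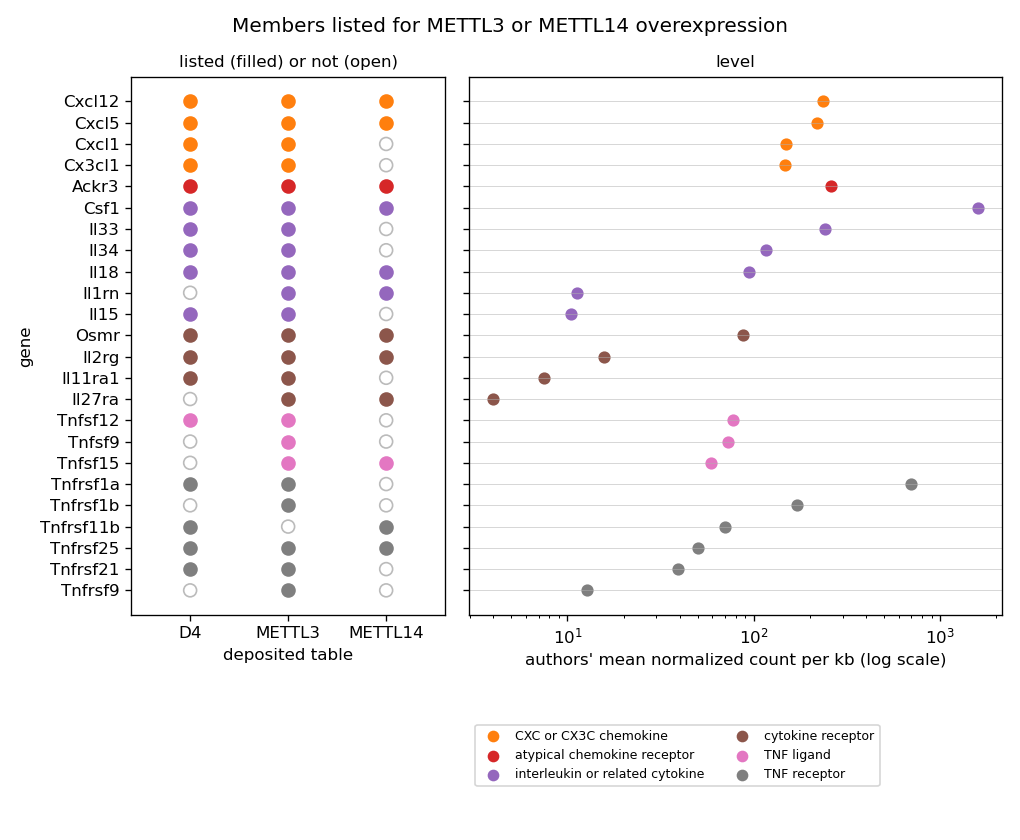
The 24 members listed for METTL3 or METTL14, colored by role. Left, a filled circle marks a table that lists the gene and an open circle one that does not; right, the authors' mean normalized count per kb (log scale), from 3.99 for Il27ra to 1594 for Csf1.

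The means of the members were also compared between the lists. The median mean normalized count was 198 for the 23 METTL3 members and 198 for the 12 METTL14 members, against 142 for the 60 D4 members. None of the METTL3 or METTL14 members had a mean under 10, and 9 of the D4 members did. Over all protein-coding genes, 1705 of 1714 listed for METTL3 and 1068 of 1079 listed for METTL14 had a mean of at least 10. For D4 this held for 8487 of 8817. Low means were thus rare in the METTL3 and METTL14 lists over all genes too. For all protein-coding genes the medians were 635, 576 and 557 for METTL3, METTL14 and D4. Ackr3, Csf1, Cxcl12, Cxcl5, Il18, Il2rg, Osmr and Tnfrsf25 were listed in all 3 tables, which share the GFP-overexpressing libraries in GM. The share of all genes listed in all 3 was not computed, so this overlap is not read as a result about the members.

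Genes that carry the signals onward were counted over whole lists, unlisted genes included. The share of all annotated protein-coding genes to set beside these counts is 40.1% for D4, 7.80% for METTL3 and 4.91% for METTL14, and the lists carry no test. Of 11 JAK and STAT genes 6 were listed for D4, 2 for METTL3 (Jak2 and Jak3) and 1 for METTL14 (Jak2). Stat3, the main STAT below Il6st, had a mean normalized count of 2225 and Jak2 one of 1044. Of 8 SOCS genes, which feed back on these receptors, 6 were listed for D4 and 1, Socs2 (533), also for METTL3 and METTL14. Of 12 NF-κB genes 7 were listed for D4, 3 for METTL3 and the same number for METTL14. Rela, which encodes the NF-κB subunit p65, was at 1360.1 and was listed for METTL3 and METTL14 but not for D4. Nfkb2 (1444) and the inhibitor Tnfaip3 (364) were listed in all 3 tables. Of 16 adaptor genes 10 were listed for D4, 2 for METTL3 (Traf1 and Traf4) and 3 for METTL14 (Map3k14 in addition). Of 26 family genes with symbols outside the rule, 8 were listed for D4, 2 for METTL3 and 3 for METTL14. Among these, Eda2r, a receptor of ectodysplasin, had a mean normalized count of 1508 and was listed for D4, and Cd40, a receptor best known from B cells, was at 67.9 and was listed for METTL3 and METTL14 only.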

How the data were processed

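Only the RNA-seq tables were used. Per the study's methods, hisat2 placed the reads on GRCm38 and featureCounts assigned them to genes of Ensembl annotation 102. The authors ran DESeq2 for the comparisons and kept genes at FDR ≤ 0.05. Tool versions are not given in the sources used here. The value used is a signal made by the authors, read counts divided by size factors and averaged over libraries. It was the same in every table that lists a gene (largest relative difference 4.77e-10), so all 3 tables share it. The other columns hold the authors' log2 fold changes, standard errors, Wald statistics and p-values, and were not used. Depth per library and replicate error cannot be read from these tables, the read totals given with the study were not used here, and no test was made.

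Members, role groups, gene lists and the 5 promoter sequences were chosen with earlier results of these data known. Named genes were the 5 members of each role group with the highest level per kb and every member listed for METTL3 or METTL14; others were named after their values were seen. By symbol Il1rn would fall among the receptors, but it was placed with the ligands. Positions and merged exon lengths came from GENCODE M21 on GRCm38, an annotation other than the authors' (10282 of 10289 identifiers found), and promoters from RefSeq on GRCm38.p6. Protein sequences were not used here. Counting, length and search functions were tested on simulated data. Python 3.11.15, pandas 2.3.3, NumPy 2.4.6, SciPy 1.17.1 and matplotlib 3.10.9 were used. Alternatives were other lengths, gene types, backgrounds and limits on low means, and leaving out Il11ra1, Ccr9, Tnfsf12 and Tnfsf13. The values of 1 gene outside the members are not reported here.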

Additional observations from a re-analysis of the deposited data

How the results depend on the processing

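No paired analysis was possible because the tables hold no value per library, and for the same reason no library could be left out. The median level of the members per kb moved from 45.7 to 145 with the longest coding sequence in place of the merged exons, and to 70.5 when members with a mean normalized count under 10 were left out. The median of all protein-coding genes, 115 per kb with merged exons, was not recomputed under these settings. Neither value can therefore be set against it. Chosen after seeing the data, all annotated protein-coding genes as the background changed the share of members listed to 34.3% for D4, 13.1% for METTL3 and 6.86% for METTL14, against 40.1%, 7.80% and 4.91% of all genes. Leaving out Il11ra1, Ccr9, Tnfsf12 and Tnfsf13, whose reads may be shared, was likewise not planned. Without these genes the shares of members were 90.3%, 33.9% and 19.4%. Other members that overlap annotated genes, among them Ccl25, Il2rg, Il1r1, Il18 and Tnfrsf9, were kept, so these shares are not free of overlapping genes. The difference between members and all genes kept its sign under all 6 alternatives for each table, from -5.79 to -1.39 percentage points for D4, from 5.34 to 22.2 for METTL3 and from 1.95 to 10.1 for METTL14. Rows of every gene type and the members' range of means kept the same 66 members. Those settings could change only the share of all genes, so the kept sign says little. The number of members was 66 with rows of every gene type. Low means limit what can be read of the rarer members: 9 had a mean normalized count under 10.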
